A study of Mus musculus with 9 samples.

Results

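The genes described here build the kinetochore, run the spindle checkpoint or carry out mitosis, and 45 of them were taken by name from the 30157 gene names on the array. The rule goes by name only and uses no measured value, and 65 of the 39429 probes on the array carry one of these names. The names themselves were chosen with earlier results of these data known, so shares over them do not come from an unbiased list. All 45 genes had at least 1 usable probe, and 64 of the 65 probes were kept. The genes fall into 8 groups by role, which are the centromere and inner kinetochore (9 genes), the outer kinetochore (11), the spindle checkpoint (6), the chromosomal passenger complex (4), mitotic kinases and spindle assembly (4), anaphase and securin destruction (4), the central spindle and cytokinesis (4), and mitotic chromosomes and markers of cycling cells (3).

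In a dividing cell the kinetochore assembles on centromeric chromatin and attaches each chromosome to spindle microtubules. The spindle checkpoint holds the anaphase-promoting complex in check until every kinetochore is attached, after which securin and cyclin B are destroyed, separase opens the cohesin rings and the chromosomes part. Many of these genes are transcribed in a burst in G2 and mitosis and are silenced when cells leave the cycle, as myoblasts do before they fuse. Calcitriol, the hormonal form of vitamin D, acts through the vitamin D receptor, a nuclear receptor.

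The cells were C2C12, a mouse myoblast line that can fuse into myotubes, treated for 72 h. The 3 groups were vehicle, calcitriol at 1 nM and calcitriol at 10 nM, with 3 arrays each. The labels name no genetic change and no other agent, and no source used here says how far the cells had differentiated when treatment began. The design text of the series calls the arrays biological replicates, and the labels do not say whether the cultures were grown separately, so the p-values measure the spread between these samples.

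Levels are log2 of a probe's processed signal over its array's 75th percentile of that signal, so 0 is the brightness of that percentile and levels of different probes cannot be ranked against each other. The 75th percentile lay between 2826 and 3389 intensity units and 0 spots were saturated. Precision is limited by the small number of arrays. Vehicle replicate 3 was unlike the others, with 96.4% of spots well above background against 67.1% to 79.2% on the other 8 arrays, and 6007 spots marked non-uniform against 8 to 56. The labelled cell type showed in its markers, of which 9 of 10 were tested, and the summed linear level of those 9 was 247 to 282 in vehicle, 304 to 319 at 1 nM and 311 to 319 at 10 nM. No Myf5 probe reached that mark on every array of a group, so Myf5 was not tested.

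Nearly all of the mitosis genes were lower in calcitriol than in vehicle at both doses. At 1 nM against vehicle, 43 of 45 fell and 0 rose, and by unadjusted p under 0.05 44 were lower and 0 higher, against a background of 11.9% lower and 11.8% higher among all 21905 genes tested in the same limma fit. Of all calls at 1 nM 49.8% were higher, or 62.2% with each array scaled to its median (56.9% without vehicle replicate 3), a setting under which 40 of the 45 fell and 0 rose. The median log2 difference of the 45 genes was -3.71, or -3.61 with genes too dim to measure set at their bound, against -0.09 over all genes tested. A fall of at least 2-fold was called for 42 of the 45, against 4.56% of all genes. These counts, and those at 10 nM and by role, include 6 genes that passed the probe filter through vehicle alone. The filter fixed their direction. When only probes well above background on all arrays were tested, 34 of 36 genes fell at 1 nM. In 44 of the 45 every 1 nM array lay below every vehicle array, which held for 22.7% of all genes tested. In bulk RNA, fewer dividing cells and less RNA of these genes per cell cannot be told apart.

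At 10 nM against vehicle, 43 of 45 fell and 0 rose (44 lower and 0 higher by unadjusted p under 0.05), with 14.7% of all genes lower and 15.5% higher. Of all calls 51.3% were higher, or 67.2% with array median scaling (61.4% without vehicle replicate 3), under which 40 of the 45 fell and 0 rose. The median was -4.07, or -3.97 with dim genes at their bound, against -0.11 over all genes. A fall of at least 2-fold was called for 42 of the 45, against 6.12% of all genes, and in 44 of the 45 every 10 nM array lay below every vehicle array, against 21.9%. The 2 doses share the vehicle arrays, so their agreement is not independent.

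Per array, the median difference of the 45 genes from the vehicle mean was -3.71, -3.80 and -3.55 on the 1 nM arrays and -4.18, -4.17 and -4.18 on the 10 nM arrays. On each of these 6 arrays 44 of the 45 genes lay below the lowest vehicle array. Leaving out vehicle replicate 3, the array that stood apart, left 43 genes called lower at 1 nM (median -3.58) and 43 at 10 nM (median -4.09). Slide and scan divided the arrays alike. Within slide 1, with 1 array of each dose and 2 of vehicle, 42 were called lower at 1 nM (median -3.66) and 42 at 10 nM (median -4.06), where 1594 and 2575 of all genes were called in either direction. Within slide 2, with 2 arrays at 1 nM and 1 each of 10 nM and vehicle, 43 were called lower at 1 nM (median -3.71) and 43 at 10 nM (median -4.19), where 10416 and 9980 of all genes were called. The 1 vehicle array of slide 2 is replicate 3, the array that stood apart, so those counts rest on it. A group with 1 array is assumed there to vary like the others.

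**Figure D1:**
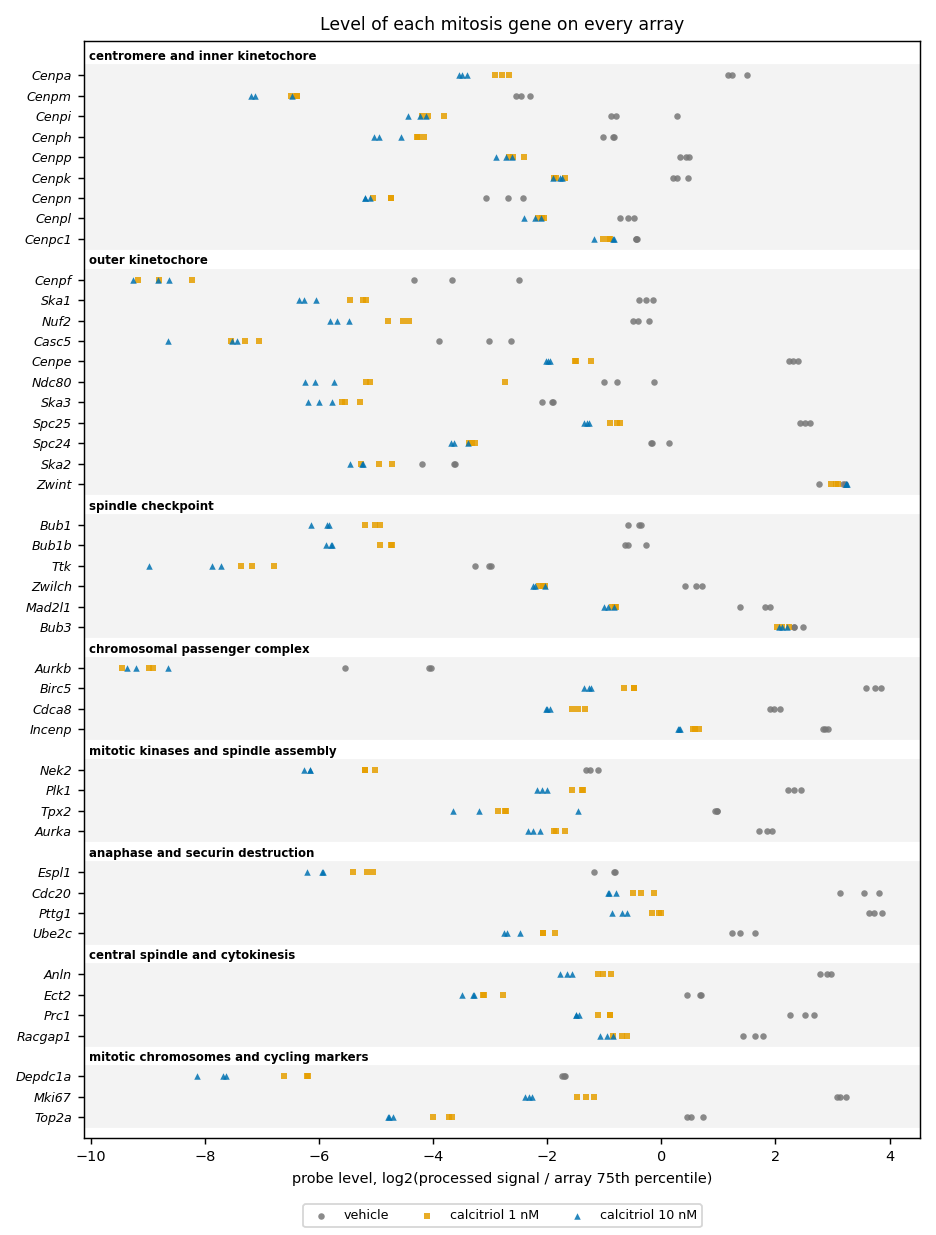
Level of each of the 45 genes on every array, as log2 of the processed signal over the array's 75th percentile on the horizontal axis, with the genes grouped by role down the page and ordered within a role by their 1 nM difference. Circles are vehicle, squares 1 nM and triangles 10 nM, with 3 arrays a group. All calcitriol points lie left of the vehicle points for 44 genes at each dose, and the Zwint points of vehicle and 1 nM intermix.

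Promoters are shown here because these genes moved together. Many promoters of mitotic genes are known to carry a CHR element (cell cycle genes homology region), bound by the DREAM and MuvB complexes, near CCAAT boxes, which bind the factor NF-Y. Windows of 300 bases, 250 before to 50 after each transcription start, came from the RefSeq promoter table of build GRCm38.p6, which held 39 of the 45 genes in 44 windows (Casc5 was matched as Knl1). Searched on both strands, the CHR was TTTGAA or TTCGAA and the CCAAT box was CCAAT. The 160 bases before the start are shown for 5 genes that fell at both doses and were chosen because they hold both strings, for Nuf2 and Pttg1, which fell at both doses and hold neither, and for Bub3 and Zwint, which did not pass the test, in lower case and 5′ to 3′ on the coding strand, with CHR and CCAAT letters (or their complements) in capitals. The regions were Cdc20 chr4:118437344-118437503 on the minus strand, Depdc1a chr3:159495273-159495432 on the plus strand, Espl1 chr15:102296133-102296292 on the plus strand, Ube2c chr2:164769769-164769928 on the plus strand, Top2a chr11:99024190-99024349 on the minus strand, Nuf2 chr1:169531465-169531624 on the minus strand, Pttg1 chr11:43425982-43426141 on the minus strand, Bub3 chr7:131560210-131560369 on the plus strand and Zwint chr10:72654686-72654845 on the plus strand.
Cdc20: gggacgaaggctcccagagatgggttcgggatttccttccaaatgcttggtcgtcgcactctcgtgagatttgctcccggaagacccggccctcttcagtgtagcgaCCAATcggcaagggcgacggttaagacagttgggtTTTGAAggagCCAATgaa
Depdc1a: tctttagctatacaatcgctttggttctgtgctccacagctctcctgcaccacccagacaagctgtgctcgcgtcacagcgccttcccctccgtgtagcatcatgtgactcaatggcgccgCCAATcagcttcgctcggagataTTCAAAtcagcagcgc
Espl1: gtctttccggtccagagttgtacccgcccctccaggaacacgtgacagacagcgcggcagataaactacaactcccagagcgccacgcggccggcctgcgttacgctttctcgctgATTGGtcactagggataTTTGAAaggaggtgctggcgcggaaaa
Ube2c: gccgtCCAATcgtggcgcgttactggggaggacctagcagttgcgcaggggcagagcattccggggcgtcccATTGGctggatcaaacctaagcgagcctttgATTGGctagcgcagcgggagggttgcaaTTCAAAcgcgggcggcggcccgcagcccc
Top2a: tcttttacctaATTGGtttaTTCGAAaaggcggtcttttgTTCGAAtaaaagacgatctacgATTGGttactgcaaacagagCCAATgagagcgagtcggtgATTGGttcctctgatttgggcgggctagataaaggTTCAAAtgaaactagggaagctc
Nuf2: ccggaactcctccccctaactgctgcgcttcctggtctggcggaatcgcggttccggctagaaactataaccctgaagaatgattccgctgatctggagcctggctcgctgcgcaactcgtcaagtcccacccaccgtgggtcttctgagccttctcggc
Pttg1: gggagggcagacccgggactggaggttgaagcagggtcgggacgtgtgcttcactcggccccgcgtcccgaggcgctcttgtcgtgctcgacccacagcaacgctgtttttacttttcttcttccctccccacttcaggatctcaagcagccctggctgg
Bub3: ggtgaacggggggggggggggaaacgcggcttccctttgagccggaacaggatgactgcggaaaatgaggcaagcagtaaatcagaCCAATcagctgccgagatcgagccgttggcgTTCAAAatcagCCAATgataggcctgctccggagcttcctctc
Zwint: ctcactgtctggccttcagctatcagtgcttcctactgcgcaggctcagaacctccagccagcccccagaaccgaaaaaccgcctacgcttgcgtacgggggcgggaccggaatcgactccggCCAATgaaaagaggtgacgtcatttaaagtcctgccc

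In the 44 windows of the mitosis genes a CHR letter string was found in 29 (65.9%), against 15% of the 16733 windows of all genes tested and 19.2% of all 32851 windows in the table. A CCAAT box was found in 35 (79.5%), against 37.7% and 37.4%, and both strings in 25 (56.8%), against 6.02% and 7.52%. An E2F string (TTTCCCGC, TTTGGCGC or TTTCGCGC) was found in 2 (4.55%), against 2.8% and 1.84%. Some genes have more than 1 window, and those of Ect2, Prc1 and Bub3 overlap, so windows are not independent, and a match is only a description of letters.

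As a description with no test, the 26 genes with a CHR string in a window had median log2 differences of -3.81 at 1 nM and -4.46 at 10 nM, against -3.33 and -3.80 in the 13 genes without one. At both doses 25 of the 26 and 12 of the 13 were called lower. The 26 include Casc5, Cenpf, Ttk, Cenpm and Depdc1a, which were kept only through vehicle, so the probe filter fixed their direction. The 13 include no such gene. These medians use differences without bounds, so the gap between them is not free of the filter. Both strings stood in a window of 22 of the 39 genes, and 5 had neither, Nuf2, Mad2l1, Pttg1, Birc5 and Cenpp, all of which fell at both doses. Of the genes not called, Bub3 has both strings in its window, and Zwint has CCAAT boxes and none of the CHR strings searched for.

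**Figure D2:**
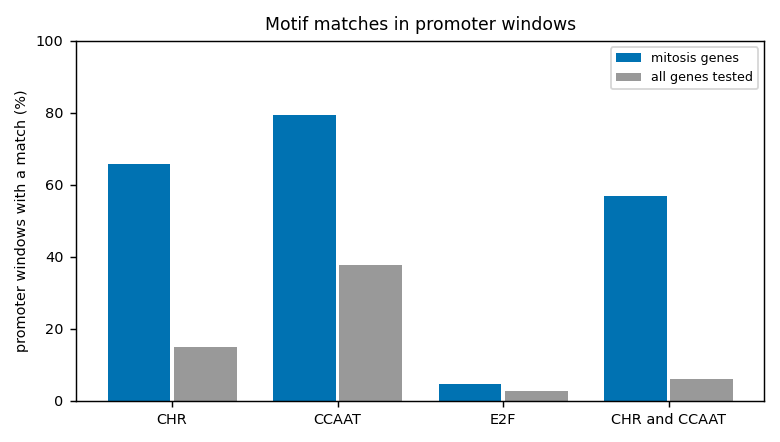
Share of promoter windows that hold each string, in percent, for the 44 windows of the mitosis genes (blue) and the 16733 windows of all genes tested (grey). CHR and CCAAT are more common in the mitosis genes (65.9% and 79.5%) than in all genes tested (15% and 37.7%), and the E2F string is rare in both.

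Among the inner kinetochore genes, which sit on the centromere, all 9 fell at both doses, with medians of -2.97 at 1 nM and -3.15 at 10 nM. Cenpa, the histone H3 variant that marks the centromere, had levels of 1.17, 1.49 and 1.24 in vehicle, -2.80, -2.91 and -2.67 at 1 nM, and -3.50, -3.55 and -3.40 at 10 nM. Every calcitriol array was far below every vehicle array, and the 10 nM arrays lay below the 1 nM ones. Cenpa fell 17.1-fold (log2 -4.10, SE 0.11, adjusted p = 3.1e-07) at 1 nM and 27.6-fold (log2 -4.79, SE 0.11, adjusted p = 8.81e-08) at 10 nM.

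Cenpc1, which binds the Cenpa nucleosome and holds the complex to the chromosome, had the smallest change of the group. Its levels were -0.45, -0.45 and -0.42 in vehicle, -1.03, -0.91 and -0.90 at 1 nM, and -1.17, -0.84 and -0.85 at 10 nM. The calcitriol arrays again lay below the vehicle arrays, by less than 1 on the log2 scale, and Cenpc1 fell 1.42-fold (log2 -0.51, SE 0.10, adjusted p = 0.00909) at 1 nM and 1.43-fold (log2 -0.51, SE 0.10, adjusted p = 0.0066) at 10 nM. The call was lost within slide 1, where the difference at 1 nM was -0.58 (adjusted p = 0.148), and its adjusted p ran from 0.000556 to 0.979 across alternatives. With each array scaled to its median instead, the difference was -0.02 at 1 nM and turned to 0.017 at 10 nM (adjusted p = 0.975). That scaling put the median of all genes at 0.38 at 1 nM and 0.40 at 10 nM, against -0.09 and -0.11 here. Leaving out vehicle replicate 3 as well, the Cenpc1 difference was -0.40 at 1 nM and -0.36 at 10 nM (adjusted p = 0.217 and 0.211) and the median of all genes 0.08 and 0.10.

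The other 7 inner kinetochore genes (Cenph, Cenpi, Cenpk, Cenpl, Cenpm, Cenpn and Cenpp), members of the constitutive centromere network, had log2 differences of -3.99 (Cenpm) to -1.50 (Cenpl) at 1 nM. The Cenpl call was lost with array median scaling at 1 nM (log2 -1.01, adjusted p = 0.121) and at 10 nM (log2 -1.12, adjusted p = 0.061). A second Cenpp probe gave -2.57 and -2.68 and missed the threshold on its own at both doses (adjusted p = 0.139 and 0.104). Cenpm was well above background on 1 of 3 arrays at 1 nM and on none at 10 nM. There it was at least 20.02-fold lower than in vehicle (adjusted p = 1.64e-06). Its probe passed the filter through vehicle alone, which fixed its direction. Such a bound divides the brighter group's mean by the dim group's mean. Any signal weaker than the weakest one of any probe still marked well above background on an array is first raised to it. A probe's own limit can lie higher, since Cenpm went unmarked at -6.48 on a 10 nM array, so these bounds are approximate.

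In the outer kinetochore, where microtubules attach, 10 of 11 genes fell at both doses, with medians of -3.71 at 1 nM and -4.30 at 10 nM. Cenpf, a large protein of the fibrous corona, had levels of -2.49, -4.34 and -3.67 in vehicle, -8.80, -9.18 and -8.22 at 1 nM, and -8.83, -9.26 and -8.63 at 10 nM. It was well above background on all vehicle arrays and on no calcitriol array, so its direction was fixed by the probe filter. Cenpf was at least 10.2-fold lower at 1 nM (adjusted p = 0.000153) and at least 9.59-fold lower at 10 nM (adjusted p = 9.01e-05). Under quantile normalization Cenpf was not called at 1 nM (log2 -1.56, adjusted p = 0.0569, range 4.88e-06 to 0.0589). Casc5, the scaffold that recruits checkpoint proteins to the kinetochore, was likewise dim on every calcitriol array, at least 12.7-fold lower at 1 nM and at least 11.9-fold lower at 10 nM.

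Ndc80 and Nuf2 form the dimer that grips the microtubule, with Spc24 and Spc25 at the other end of the complex. Nuf2 had levels of -0.49, -0.21 and -0.40 in vehicle, -4.54, -4.80 and -4.43 at 1 nM, and -5.47, -5.69 and -5.82 at 10 nM, and it fell 18.7-fold (log2 -4.22, SE 0.13, adjusted p = 7.53e-07) at 1 nM and 39.2-fold (log2 -5.29, SE 0.13, adjusted p = 1.6e-07) at 10 nM. The groups did not overlap, and its 2 probes well above background on all arrays differed in size, with log2 differences of -4.22 and -2.85 at 1 nM. Another Nuf2 probe was kept through vehicle alone and was well above background on no calcitriol array.

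Ndc80, chosen after its values were seen, had levels of -1.01, -0.78 and -0.13 in vehicle, -2.74, -5.19 and -5.11 at 1 nM, and -5.75, -6.08 and -6.26 at 10 nM. One 1 nM array stood well above the other 2, and still below every vehicle array. Ndc80 fell 13-fold (log2 -3.71, SE 0.63, adjusted p = 0.0043) at 1 nM, and its log2 difference was -4.51 without that array (adjusted p = 0.000114, range 0.000114 to 0.0225).

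Zwint, which links the Casc5 scaffold to checkpoint proteins, was the 1 outer kinetochore gene not called at either dose. Its levels were 3.19, 2.77 and 3.22 in vehicle, 2.97, 3.06 and 3.09 at 1 nM, and 3.23, 3.23 and 3.26 at 10 nM, so the 1 nM arrays lay among the vehicle arrays and the 10 nM arrays just above them. The difference was -0.02 at 1 nM (SE 0.12, adjusted p = 0.923) and 0.18 at 10 nM (adjusted p = 0.292). Its other probe gave -0.07 at 1 nM, so both probes gave values close to 0. With array median scaling the 1 nM difference was 0.47 (adjusted p = 0.333), or 0.16 without vehicle replicate 3.

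The remaining outer kinetochore genes were Spc24, Spc25, Cenpe, Ska1, Ska2 and Ska3, of which the Ska proteins stabilise the microtubule attachment and Cenpe is a kinesin that moves chromosomes to the equator. All 6 fell at 1 nM, with log2 differences of -5.02 (Ska1) to -1.16 (Ska2). The Ska2 call was lost under 3 alternatives at each dose (log2 -0.27 at 1 nM with quantile normalization, adjusted p = 0.672, range 4.27e-05 to 0.718).

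**Figure D3:**
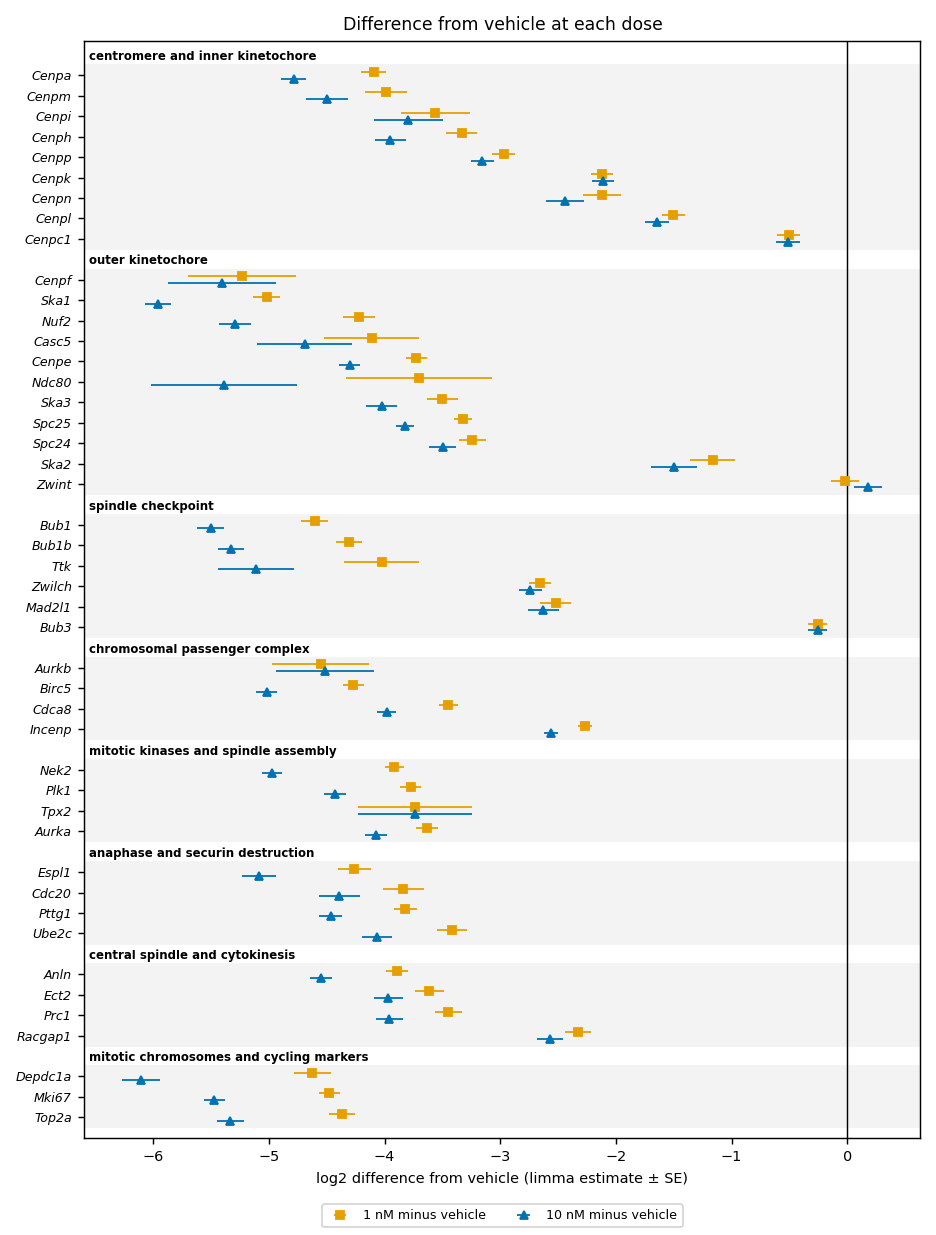
Log2 difference from vehicle (limma estimate, bars are SE) for each gene, with squares for 1 nM and triangles for 10 nM. The 44 genes other than Zwint lie below 0 at both doses, with Bub3 close to 0 (above 0 with array median scaling, as Cenpc1 is at 10 nM, and both below 0 there without vehicle replicate 3) and most between -2 and -6.

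Of the spindle checkpoint genes 5 of 6 fell at both doses, with medians of -3.34 at 1 nM and -3.92 at 10 nM. Bub1, the kinase that starts checkpoint assembly at the kinetochore, had levels of -0.39, -0.58 and -0.36 in vehicle, -5.02, -5.19 and -4.94 at 1 nM, and -6.15, -5.86 and -5.84 at 10 nM. The 3 groups did not overlap and 10 nM was lowest. Bub1 fell 24.3-fold (log2 -4.60, SE 0.12, adjusted p = 2.94e-07) at 1 nM and 45.4-fold (log2 -5.50, SE 0.12, adjusted p = 7.56e-08) at 10 nM. Bub1b, the BubR1 protein that inhibits the anaphase-promoting complex, had levels of -0.59, -0.27 and -0.63 in vehicle, -4.73, -4.94 and -4.75 at 1 nM, and -5.79, -5.89 and -5.78 at 10 nM and fell 19.8-fold at 1 nM (adjusted p = 3.1e-07).

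Bub3, the WD-repeat partner of Bub1 and Bub1b, was not called. Its levels were 2.33, 2.33 and 2.48 in vehicle, 2.03, 2.24 and 2.11 at 1 nM, and 2.12, 2.20 and 2.06 at 10 nM, and although the calcitriol arrays lay below the vehicle arrays, the differences of -0.25 at 1 nM (SE 0.08, adjusted p = 0.0642) and -0.25 at 10 nM (adjusted p = 0.0532) missed the threshold. It was called lower under 3 alternatives at 1 nM and under 4 at 10 nM, with adjusted p of 0.0297 to 0.685 and of 0.0251 to 0.777 across alternatives. With array median scaling its differences turned to 0.24 at 1 nM and 0.27 at 10 nM (adjusted p = 0.623 and 0.539), and were -0.10 and -0.07 with vehicle replicate 3 left out too.

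Mad2l1, which encodes the Mad2 checkpoint protein, had levels of 1.90, 1.38 and 1.81 in vehicle, -0.81, -0.86 and -0.79 at 1 nM, and -1.01, -0.94 and -0.83 at 10 nM. Its groups did not overlap between calcitriol and vehicle, and it fell 5.74-fold (log2 -2.52, SE 0.14, adjusted p = 1.09e-05) at 1 nM. Its 3 probes gave -2.52, -0.98 and -2.11. Ttk, the Mps1 kinase at the head of the checkpoint, was dim on all calcitriol arrays and was at least 13.6-fold lower at 1 nM and at least 12.8-fold lower at 10 nM. Zwilch, part of the complex that brings dynein to kinetochores, fell 6.31-fold at 1 nM (adjusted p = 1.37e-06).

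All 4 genes of the chromosomal passenger complex, which corrects faulty attachments, fell at both doses, with medians of -3.86 and -4.25. Aurkb, its kinase, had levels of -4.05, -4.07 and -5.55 in vehicle, -8.91, -9.45 and -8.98 at 1 nM, and -9.20, -9.37 and -8.65 at 10 nM. It was well above background on no calcitriol array, so its direction was fixed by the probe filter, and the vehicle arrays 1 and 2 lay above the third. Aurkb was at least 4.92-fold lower at 1 nM (adjusted p = 0.00018) and at least 4.62-fold lower at 10 nM. The call of Aurkb was lost at both doses with quantile normalization (log2 -1.12 at 1 nM, adjusted p = 0.134, range 5.96e-07 to 0.163). Incenp, the scaffold of the complex, had levels of 2.87, 2.83 and 2.92 in vehicle, 0.58, 0.56 and 0.66 at 1 nM, and 0.32, 0.32 and 0.29 at 10 nM and fell 4.82-fold (log2 -2.27, SE 0.06, adjusted p = 3.1e-07) at 1 nM and 5.9-fold (log2 -2.56, SE 0.06, adjusted p = 1.06e-07) at 10 nM. It had the smallest change of the 4, with no overlap between groups. Birc5 (survivin) and Cdca8 (borealin), the other 2 members, had differences of -4.27 and -3.45 at 1 nM.

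Of the mitotic kinases and spindle assembly genes all 4 fell at both doses. Nek2, a kinase that separates centrosomes, had levels of -1.31, -1.11 and -1.25 in vehicle, -5.20, -5.20 and -5.02 at 1 nM, and -6.16, -6.16 and -6.26 at 10 nM. The 3 groups were apart, and it fell 15.1-fold (log2 -3.92, SE 0.08, adjusted p = 2.2e-07) at 1 nM and 31.4-fold (log2 -4.97, SE 0.08, adjusted p = 6.06e-08) at 10 nM. Aurka, the kinase of spindle poles, had levels of 1.85, 1.70 and 1.94 in vehicle, -1.88, -1.84 and -1.69 at 1 nM, and -2.35, -2.25 and -2.13 at 10 nM, with the same ordering, and fell 12.4-fold at 1 nM (adjusted p = 3.1e-07). Tpx2, which activates Aurka, had levels of 0.98, 0.97 and 0.95 in vehicle, -2.73, -2.86 and -2.73 at 1 nM, and -1.46, -3.20 and -3.65 at 10 nM. One 10 nM array stood above the other 2 and above the 1 nM arrays. Tpx2 fell 13.3-fold (log2 -3.74, SE 0.49, adjusted p = 0.000882) at 10 nM, and its log2 difference was -4.39 without that array. The other Tpx2 probe gave only -1.14 at 1 nM. Plk1, the polo kinase of mitotic entry, fell 13.7-fold at 1 nM.

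The genes of anaphase and securin destruction all fell at both doses, with medians of -3.83 and -4.43. Espl1 (separase, the protease that cuts cohesin) had levels of -1.18, -0.84 and -0.82 in vehicle, -5.16, -5.41 and -5.05 at 1 nM, and -5.93, -5.95 and -6.22 at 10 nM. Its groups did not overlap and it fell 19.2-fold (log2 -4.26, SE 0.15, adjusted p = 9.99e-07) at 1 nM. Ube2c, a ubiquitin-conjugating enzyme of the anaphase-promoting complex, had levels of 1.24, 1.63 and 1.38 in vehicle, -2.07, -2.07 and -1.86 at 1 nM, and -2.47, -2.71 and -2.76 at 10 nM, likewise apart, and fell 10.7-fold (log2 -3.42, SE 0.13, adjusted p = 1.64e-06), the smallest change of the 4. Cdc20, which activates that complex, and Pttg1 (securin, the inhibitor of separase) had log2 differences of -3.84 and -3.82 at 1 nM.

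In the central spindle and cytokinesis group all 4 genes fell at both doses. Anln (anillin, a scaffold of the contractile ring) had levels of 2.97, 2.90 and 2.79 in vehicle, -1.11, -1.03 and -0.88 at 1 nM, and -1.77, -1.65 and -1.57 at 10 nM. Racgap1, part of the centralspindlin complex, had levels of 1.63, 1.43 and 1.77 in vehicle, -0.84, -0.70 and -0.60 at 1 nM, and -1.07, -0.85 and -0.95 at 10 nM. In both, all calcitriol arrays lay below all vehicle arrays, and Anln fell 14.9-fold (log2 -3.89, SE 0.09, adjusted p = 2.53e-07) and Racgap1 5.01-fold (log2 -2.33, SE 0.11, adjusted p = 6.17e-06) at 1 nM, the largest and smallest change of the group. Ect2, the exchange factor that activates RhoA at the cleavage site, had levels of 0.67, 0.46 and 0.70 in vehicle, -3.11, -3.13 and -2.77 at 1 nM, and -3.50, -3.28 and -3.30 at 10 nM. Its groups did not overlap, and its 2 probes gave -3.61 and -1.80. The second probe was well above background on 2 of 3 arrays at each dose and missed the threshold on its own at 1 nM (adjusted p = 0.0776). Prc1, a bundler of microtubules in the central spindle, fell by 3.45 on the log2 scale.

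The 3 genes of mitotic chromosomes and cycling markers had the largest median of the groups, -4.48 at 1 nM and -5.47 at 10 nM. Depdc1a had levels of -1.74, -1.69 and -1.71 in vehicle, -6.22, -6.19 and -6.61 at 1 nM, and -7.68, -7.64 and -8.14 at 10 nM. The groups did not overlap, and Depdc1a was well above background on 2 of 3 arrays at 1 nM and on none at 10 nM. At 10 nM it was at least 33.1-fold lower than in vehicle (adjusted p = 1.93e-07). Its probe passed the filter through vehicle alone, which fixed its direction. Mki67, a coat protein of mitotic chromosomes that marks cycling cells, had levels of 3.13, 3.24 and 3.08 in vehicle, -1.33, -1.48 and -1.18 at 1 nM, and -2.31, -2.27 and -2.38 at 10 nM. Top2a (topoisomerase II alpha, which untangles sister chromatids) had levels of 0.53, 0.73 and 0.45 in vehicle, -3.72, -4.01 and -3.68 at 1 nM, and -4.71, -4.78 and -4.80 at 10 nM, and fell 20.7-fold (log2 -4.37, SE 0.11, adjusted p = 3.1e-07) at 1 nM and 40.3-fold (log2 -5.33, SE 0.11, adjusted p = 7.56e-08) at 10 nM. In both, the 1 nM arrays lay between the vehicle and the 10 nM arrays.

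Dim probes limit how far a fall could be measured. Of the 45 genes, 36 were represented by a probe well above background on all 9 arrays, and of these 34 fell at 1 nM and 35 at 10 nM when only such probes were tested. The 6 genes kept only through vehicle, Cenpm, Casc5, Cenpf, Ttk, Aurkb and Depdc1a, passed the filter on dim probes through vehicle alone, so their direction was fixed by the filter.

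Comparing the doses, the question was whether 10 nM lowered these genes beyond 1 nM. Of 45 genes 20 fell and 0 rose at 10 nM against 1 nM (28 lower and 0 higher by unadjusted p under 0.05), with 2.24% of all genes lower and 1.6% higher. Of all calls 41.7% were higher, or 69% of 58 calls with array median scaling (51% of 576 without vehicle replicate 3). The median difference was -0.52, against -0.01 over all genes, and 40 of the 45 estimates were below 0. When only probes well above background on all arrays were tested, 18 of 36 genes fell, and 32 of the 36 estimates were below 0. In 30 of the 45 every 10 nM array lay below every 1 nM array, against 11.4% of all genes. A fall of at least 2-fold was called for 4, against 0.411%. These 4 include Depdc1a, which was well above background on no 10 nM array and whose bound was only 1.34-fold. Casc5, Cenpf, Ttk and Aurkb were dim on every array of both doses, so their dose differences compare signal near background. Casc5, Cenpf and Ttk count among the 40 below 0, and Ttk also among the 28 and the 30. None of them was called.

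The counts between the doses depended on how the arrays were handled. Same-numbered 1 nM and 10 nM arrays deviated together (correlations 0.483, 0.33 and 0.141 across genes). With the replicate number as a block in a fit of all arrays, vehicle included, 13 of the 45 were called lower. Slide 1 holds 1 nM replicate 1 and 10 nM replicate 1. Slide 2 holds 1 nM replicates 2 and 3 and 10 nM replicate 2, and 10 nM replicate 3 was alone on slide 3. The 2 doses thus shared a slide in replicates 1 and 2, where slide and replicate number cannot be told apart. With slide as a block 12 were called. Within slide 1 limma called 0 (19 lower by unadjusted p under 0.05) and within slide 2 it called 0 (28 lower by unadjusted p), with medians of -0.45 and -0.53. With each array scaled to its median 0 were called (11 by unadjusted p). Leaving out 1 nM replicate 1 left 13, 1 nM replicate 3 left 11, and 10 nM replicate 2 left 12.

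The genes with the smallest p between doses were Nek2, Mki67, Depdc1a and Bub1b, whose levels are given above. Nek2 fell 2.08-fold (log2 -1.06, SE 0.08, adjusted p = 0.00098), Mki67 1.99-fold (log2 -0.99, SE 0.09, adjusted p = 0.00181) and Bub1b 2.02-fold (log2 -1.01, SE 0.11, adjusted p = 0.00365) at 10 nM against 1 nM. In all 4 genes every 10 nM array lay below every 1 nM array. Nek2 was well above background on 2 of 3 arrays at 10 nM. Depdc1a was not well above background on any 10 nM array and was at least 1.34-fold lower than at 1 nM (adjusted p = 0.00355). Over their alternatives the adjusted p ran from 0.00021 to 0.727 for Nek2, 0.000207 to 0.904 for Mki67, 0.00115 to 0.911 for Depdc1a and 0.000569 to 0.942 for Bub1b. The log2 difference ran from -1.09 to -0.41 for Nek2, -1.09 to -0.87 for Mki67, -1.62 to -0.30 for Depdc1a and -1.08 to -0.50 for Bub1b. With quantile normalization it was -0.42 for Nek2 and -0.52 for Bub1b (adjusted p = 0.138 and 0.177).

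Between doses the roles differed in size, which is a description of medians. The medians include genes dim at both doses, Casc5 and Cenpf (outer kinetochore), Ttk (checkpoint) and Aurkb (passenger complex). The mitotic chromosome group had the largest median, -0.99 with 3 of 3 called, and the inner kinetochore group the smallest, -0.23 with 2 of 9. Between these lay the outer kinetochore (-0.52, 4 of 11), the checkpoint (-0.50, 2 of 6), the passenger complex (-0.41, 3 of 4), the kinases (-0.55, 2 of 4), the anaphase genes (-0.65, 3 of 4) and the cytokinesis genes (-0.43, 1 of 4). With the replicate number as a block the calls were 3 of 3 in the mitotic chromosome group, 0 of 9 in the inner kinetochore, 4 of 11 in the outer kinetochore, 2 of 6 in the checkpoint, 2 of 4 in the passenger complex, 1 of 4 kinases, 0 of 4 anaphase genes and 1 of 4 cytokinesis genes. Genes such as Cenpk (0.01), Bub3 (0.00) and Cenpc1 (-0.01) had differences close to 0 between the doses. For Tpx2 the difference was 0.00, and -0.65 without the high 10 nM array (adjusted p = 0.0829, range 0.0829 to 1).

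**Figure D4:**
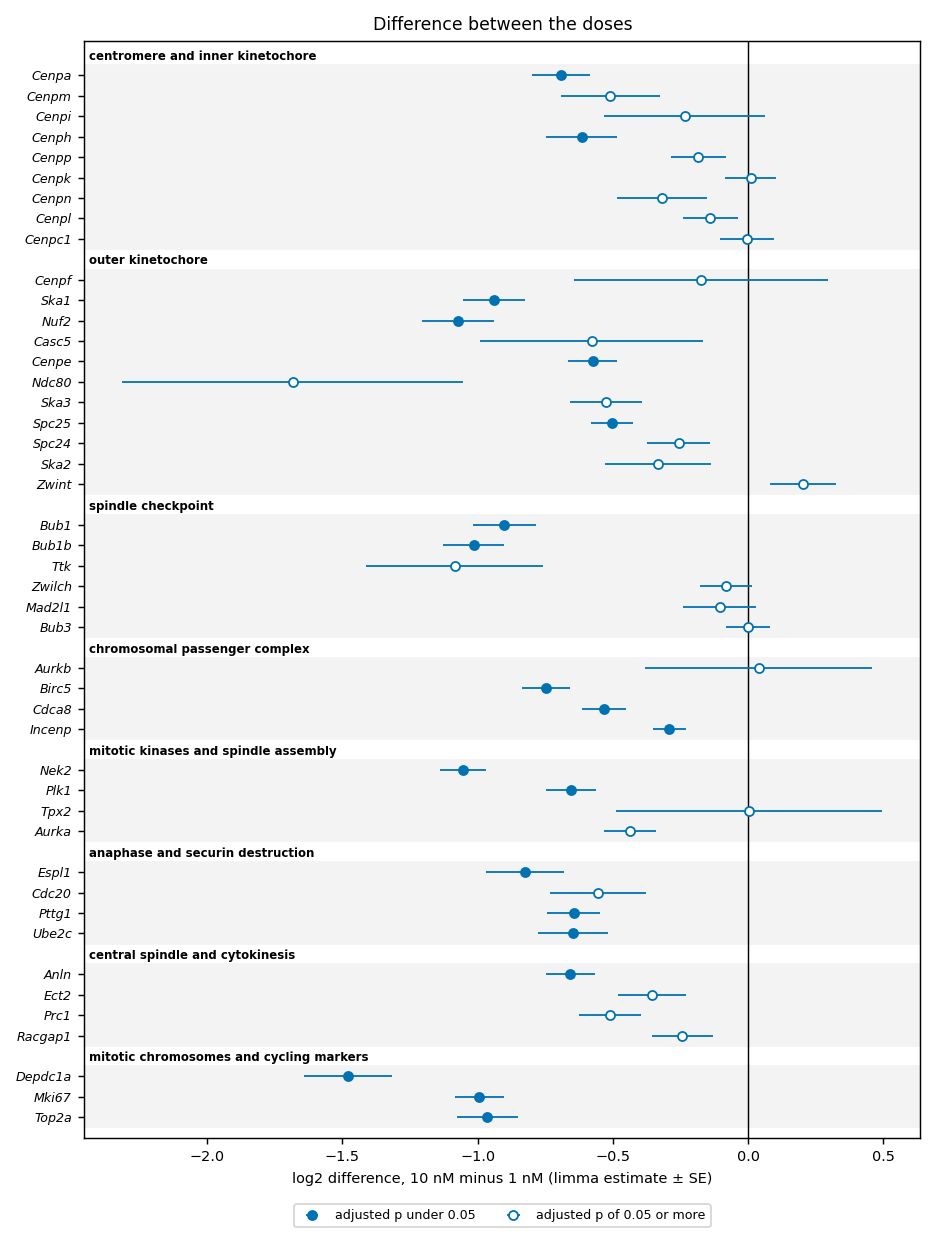
Log2 difference between 10 nM and 1 nM (limma estimate, bars are SE), with filled circles for the 20 genes called and open circles for the other 25. Most genes lie between 0 and -1, and Ndc80 is the lowest with the widest error bar.

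Other genes of cell division were set beside the mitosis genes. Of 83 related genes in 4 lists, 52 fell and 4 rose at 1 nM against vehicle and 54 fell and 8 rose at 10 nM, against the background shares given above. At 10 nM against 1 nM 8 fell and 1 rose. Of 29 other kinetochore and checkpoint genes 21 fell and 1 rose at 1 nM, with a median of -1.13. Cdca5 (sororin, which protects cohesion) fell with a log2 difference of -3.49, Sgo1 (shugoshin, which protects centromeric cohesion) with -3.98 and Kntc1, a partner of Zwilch, with -4.56. Clasp1, a microtubule-stabilising protein, rose by 0.24 (adjusted p = 0.0261).

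Most genes of the anaphase-promoting complex itself had differences near 0. Of 16 genes 5 fell and 2 rose at 1 nM, with a median of -0.19. Fbxo5, an inhibitor of that complex, fell 8.9-fold (log2 -3.15, SE 0.09, adjusted p = 5.3e-07), and it was the only gene of the list to fall by 2-fold or more. The subunit genes Anapc7 and Anapc16 rose, Anapc7 with a log2 difference of 0.43 (adjusted p = 0.00468) and Anapc16 with 0.30 (adjusted p = 0.0191). Of 16 condensin and cohesin genes 8 fell and 0 rose, with a median of -0.30. The condensin genes Ncapd2, Ncaph and Smc4 fell, with log2 differences of -2.57, -3.19 and -1.41.

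Of 22 spindle and cytokinesis genes 18 fell and 1 rose at 1 nM, with a median of -2.65. Spag5, Melk and Pbk fell, with log2 differences of -3.67, -4.26 and -4.31, and Numa1, which gathers microtubules at spindle poles, rose by 0.42 (adjusted p = 0.0117). Mad1l1, the partner of Mad2 at the kinetochore, was chosen after its values were seen as the 1 related gene that rose at 10 nM against 1 nM, by 0.93 (adjusted p = 0.00108).

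The smaller changes among the related genes depended on the scaling. With each array scaled to its median, 31 of the 83 were called lower and 0 higher at 1 nM, and the median turned to 0.30 for the anaphase-promoting complex and to 0.19 for condensin and cohesin, where all genes had 0.38. Without vehicle replicate 3 that scaling gave 42 lower and 0 higher, with medians of -0.09 and -0.21 for those lists. That scaling ended the calls of Clasp1, Anapc7, Anapc16, Numa1 and Smc4 (adjusted p = 0.209, 0.141, 0.19, 0.154 and 0.126) without changing their direction. The fall of Fbxo5 was -2.66 there (adjusted p = 6.96e-05). Clasp1 and Anapc16 also missed the threshold with quantile normalization (adjusted p = 0.0946 and 0.0933). Within slide 1 35 of the 83 were called lower and 0 higher. Between the doses, 5 of the 83 were called lower with the replicate block and 0 within slide 1, within slide 2 or with median scaling, while Mad1l1 missed the threshold with median scaling (adjusted p = 0.787).

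**Figure D5:**
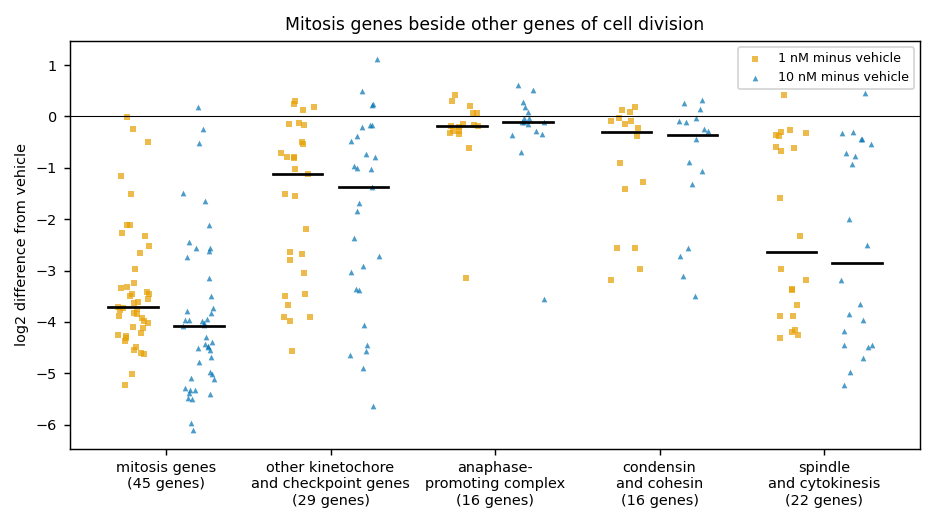
Log2 difference from vehicle for the 45 mitosis genes and the 4 related lists, with squares for 1 nM, triangles for 10 nM, 1 point a gene and black bars at the medians. The mitosis genes and the spindle and cytokinesis genes sit mostly below -2, and most genes of the anaphase-promoting complex sit near 0.

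Markers of other cell types were measured beside these genes. The summed linear level of 6 adipocyte markers was 0.864 to 1.51 in vehicle, 2.76 to 2.91 at 1 nM and 6.04 to 6.46 at 10 nM. Cebpa, a factor of fat cell differentiation, rose at 1 nM (log2 1.85, adjusted p = 7.11e-05). Fabp4, a fatty acid binding protein, had levels of -8.27, -8.43 and -3.82 in vehicle, 0.08, 0.19 and 0.04 at 1 nM, and 0.62, 0.83 and 0.80 at 10 nM. The vehicle level of -3.82 is from replicate 3, the array that stood apart. Fabp4 was called higher at 1 nM (adjusted p = 0.00318). No fold is given because Fabp4, like Adipoq, was well above background on all 6 calcitriol arrays and on 1 of 3 vehicle arrays. Both passed the probe filter through the calcitriol groups alone, so their direction was fixed by the filter. The adipocyte sum includes both, so its rise was in part fixed by the filter, and the sum without them is not given. The sum of 5 macrophage markers was 20.8 to 25.2 in vehicle, 17.8 to 19.2 at 1 nM and 16.1 to 21.3 at 10 nM. For 3 endothelial markers it was 3.55 to 5.92, 3.81 to 5.21 and 4.54 to 6.25 in the same order, for 4 osteoblast markers 0.405 to 0.565, 0.425 to 0.461 and 0.272 to 0.326, and for 5 fibroblast markers 98.7 to 103.9, 93.0 to 102.0 and 83.1 to 97.2. Cdh5 (endothelial) and Alpl (osteoblast) were not tested for the same reason as Myf5. Of the 9 muscle markers tested, Myod1, Actn2, Ckm and Tnnt3 rose at 1 nM, with log2 differences of 0.66, 0.85, 0.48 and 0.46. The other muscle markers tested are not given singly, so those named do not stand for the set, and 11.8% of all genes were called higher at that dose. With array median scaling the median of all genes at 1 nM moved from -0.09 to 0.38, and these differences are not given under it. The part of any of these cell types in the fall of the mitosis genes was not tested.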

How the data were processed

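Total RNA was labelled with Cy3 and each sample was hybridised to its own 1-colour array. The deposited scanner files hold processed signal as intensity on a linear scale, already background-corrected, per the file headers, with marks for spots that are non-uniform or well above background. Per the submitters' processing notes, the images were read with Agilent Feature Extraction, version 11.5.1.1. The submitters' deposited series table of log2 values served as an alternative.

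Levels are log2 processed signal minus the array's 75th percentile. Control and outlier spots were left out and spots of a probe averaged. A probe was kept if well above background on all 3 arrays of a group (28339 probes, 71.9%), and a gene is its kept probe with the highest mean (21905 genes). Groups were compared in 1 fit of all arrays with lmFit and eBayes from limma (version 3.58.1, run in R version 4.3.3), with Benjamini-Hochberg adjustment over all genes and a threshold of 0.05. The same steps were tested on simulated data. Replicate numbers were taken to pair the 1 nM and 10 nM arrays from correlations of 0.483, 0.33 and 0.141, not from the labels. Vehicle arrays were not taken as paired. Their correlations were 0.0552, -0.021 and -0.00663 with same-numbered 1 nM arrays and -0.186, -0.194 and -0.421 with 10 nM arrays. The main fit used no block. The replicate block was fitted on all arrays, so vehicle arrays entered the same blocks and it was not a pairing of the doses alone. Named genes were the largest and smallest change of each role at 1 nM, those not called, those whose probes differ by more than 1, and the 4 with the smallest p between doses. Related lists name the 3 called genes with the smallest p and any called higher. The members and the lists were chosen with earlier results of these data known. Probe coordinates are in mm9 and promoters in GRCm38.p6; no coordinates were converted, and exon structure was not analysed here.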

Additional observations from a re-analysis of the deposited data

How the results depend on the processing

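Of 1116 comparisons of single mitosis genes with alternatives at each dose, 1102 at 1 nM and 1103 at 10 nM kept their side of the threshold and, where called, their direction, and 926 between the doses, where 173 lost the call and 17 gained it. These include values that were not called and changed sign, 7 at 1 nM (Zwint and Bub3), 1 at 10 nM (Bub3) and 41 between doses. With normexp and quantile normalization the median difference of the 45 genes was -2.96 at 1 nM, -3.26 at 10 nM and -0.30 between doses, where 9 were called. With normexp and the 75th percentile it was -3.10, -3.54 and -0.33. With array median scaling it was -3.22 and -3.54, and 0 were called between doses; Cenpc1 at 10 nM turned to 0.017. In the submitters' table it was -2.88, -3.15 and -0.31, with 6 called between doses. Testing only probes well above background on all arrays gave -3.48 at 1 nM. Array median scaling without vehicle replicate 3, added after seeing the data, gave -3.48 at 1 nM and 11 called between doses. Between doses 13 were called with the replicate block, 12 with slide as a block, 0 within slide 1, 0 within slide 2, 11 at a threshold of 0.01 and 4 at 2-fold. Leaving out 1 array at a time gave medians of -3.76 to -3.58 at 1 nM, -4.32 to -4.07 at 10 nM and -0.56 to -0.48 between doses, and 11 to 22 calls between doses. The replicate block changed no count against vehicle. Over all genes, median scaling called 1512 at 1 nM, 2533 at 10 nM and 58 between doses, against 5184, 6614 and 841, and put the median of all genes at 0.38, 0.40 and 0.03, against -0.09, -0.11 and -0.01; the share higher was 62.2%, 67.2% and 69%, against 49.8%, 51.3% and 41.7%. Median scaling without vehicle replicate 3 called 3637, 5442 and 576 of all genes, with medians of 0.08, 0.10 and 0.03 and 56.9%, 61.4% and 51% higher, so the shift under median scaling was smaller without that array. Array weights, whose estimate stopped before full convergence, called 11469, 10423 and 1883 of all genes. Within slide 1 it was 1594, 2575 and 5, and within slide 2 10416, 9980 and 0, with 26.7% higher at 1 nM and 28% at 10 nM. Between doses, calls over all genes numbered 517 with quantile normalization, 367 in the submitters' table, 537 without a probe filter, 1350 with only the 2 groups, 355 with slide as a block, 460 with the replicate block and 365 to 1267 with 1 array left out. Of the 83 related genes, median scaling called 31 lower at 1 nM (42 without vehicle replicate 3) against 52. The cause of the other shifts was not tested. Signal near background limits the size of the falls of the 6 dimmest genes. The 4 genes called at 2-fold between doses include Depdc1a, which was dim on every 10 nM array.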
